A study of Homo sapiens with 8 samples.

Results

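The 4 siControl arrays described here show how U87 cells changed between 24 h and 48 h after transfection with a non-silencing siRNA. They were chosen by their labels, as 3 arrays at 24 h and 1 array at 48 h, out of 8 arrays in the series. U87 is an established human glioblastoma line, so the cultures hold tumour cells only, without stroma. All cells received siRNA by reverse transfection with Lipofectamine RNAiMAX, and the siControl cells received a commercial non-silencing duplex. The other 4 arrays came from cells given siRNA against RND3 (siRND3), again as 3 arrays at 24 h and 1 at 48 h. In these groups time in culture and time since transfection cannot be told apart. The labels do not say whether the 3 arrays at 24 h came from separate transfections, so the p-values measure the spread between these arrays, which may be technical.

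NF-kB is a transcription factor that its inhibitor NFKBIA holds in the cytoplasm until an inflammatory signal frees it, and in glioblastoma cells it drives cytokine genes such as IL6. ATF4 is a transcription factor that is made when amino acids run short or proteins misfold. KRAB zinc finger proteins, encoded by most of the genes whose symbol starts with ZNF, are repressors that bind DNA, and many of their genes lie together on chromosome 19.

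All 12 markers of mesenchymal glioma cells, a class that U87 resembles, were well above background on the 4 siControl arrays, among them VIM at a log2 signal of 17.38 (mean at 24 h) and 17.27 (48 h) and CD44 at 15.78 and 15.88. Of 8 astrocyte markers, 4 were well above background on all 4 arrays (GJA1, SLC1A3, SOX9 and ALDH1L1), and GFAP and AQP4 on none. The same held for 6 of 8 neuron, 6 of 8 oligodendrocyte, 6 of 8 endothelial, 8 of 8 lymphocyte and 6 of 7 microglia and macrophage markers, so these lists did not separate cell types here. The mean log2 signal of the microglia and macrophage markers was 6.79 to 6.98 at 24 h and 7.24 at 48 h, and that of the lymphocyte markers was 7.10 to 7.25 and 7.40. As U87 is a cell line, these values are not read as the presence of other cell types, and their source was not tested. Across probes, the arrays at 24 h had pairwise correlations of 0.993 to 0.995, and the array at 48 h correlated with each of them at 0.988 to 0.990. All 8 arrays lay on 1 slide. The 24 h arrays filled slide columns 1 to 3 and both 48 h arrays column 4, so time and slide column cannot be told apart. The slope of the spike-in ladder was 0.958 to 0.973 on the siControl arrays at 24 h and 0.998 at 48 h, and the median local background was 31 to 35 at 24 h and 27 at 48 h. Their part in the results was not tested.

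Several inflammatory cytokines rose and many zinc finger genes fell between 24 h and 48 h. Of 14805 genes tested, 169 were higher at 48 h (1.14%) and 530 were lower (3.58%) past an adjusted p of 0.05 in limma, where each gene was read from its brightest probe (699 genes, or 4.72%, in all). Over probes, 1038 of 28762 passed (3.61%), with 242 higher (0.841%) and 796 lower (2.77%). The median change was 0.76 (log2) among genes that rose and -0.82 among those that fell, against a median size of 0.19 over all genes tested. The difference exceeded 1 on the log2 scale for 47 of the genes that rose and 157 of those that fell. For all 699 genes the value at 48 h lay outside the 3 values at 24 h, but so did 36.3% of the genes tested on the high side and 39.3% on the low side. Requiring in addition a difference above 1, with no test, left 95 genes higher (0.642% of 14797) and 206 lower (1.39%), which became 23 and 30 under normexp background correction. The filter reads the arrays at 24 h alone, so it admits genes that are dim at 48 h and not the reverse. With a filter that also reads the siControl array at 48 h the counts were 201 higher and 196 lower, and with scaling to the 75th percentile 142 and 132, so the excess of falls by this measure was not kept. With 1 array at 48 h, the test takes its spread from the arrays at 24 h of both treatments and assumes that the array at 48 h varies like them. Fitted on the 4 siControl arrays alone, limma called no gene (smallest adjusted p = 0.0512), while 4145 genes had an unadjusted p under 0.05, and an exact permutation test over 4 arrays cannot go below 0.25. Without siControl replicate 1, 2 or 3 at 24 h, 73, 69 and 53 genes were called, and without siRND3 replicate 1, 2 or 3 at 24 h, 507, 510 and 465.

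**Figure D1:**
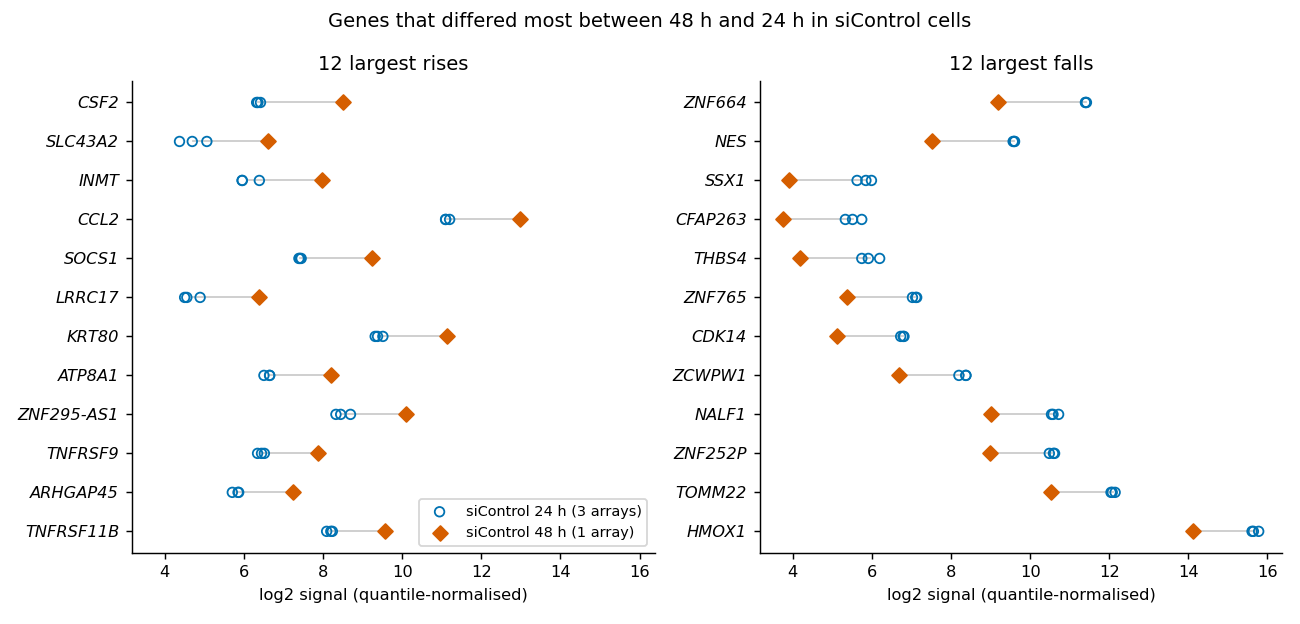
Log2 signal on each siControl array (horizontal axis) for the 12 genes with the largest rise (left) and the 12 with the largest fall (right) among genes past an adjusted p of 0.05 and well above background on all 4 arrays. Open circles are the 3 arrays at 24 h and diamonds the array at 48 h. The diamond lies outside the 3 circles in every gene shown, which was a condition of being shown. Its distance runs from 1.40 log2 above their mean for TNFRSF11B to 2.15 above for CSF2. Among the falls it runs from 1.55 below for HMOX1 to 2.22 below for ZNF664.

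The 12 largest rises included 2 cytokines, 2 TNF receptor family members and an inhibitor of cytokine signalling, beside genes of other roles. CSF2, which encodes the growth factor GM-CSF, had log2 signals of 6.32, 6.42 and 6.35 at 24 h and 8.51 at 48 h. That is a rise of 2.15 ± 0.23 (SE), or 4.44-fold (adjusted p = 0.0141). CCL2, a chemokine that attracts monocytes, stood at 11.10, 11.10 and 11.20 at 24 h and at 12.97 at 48 h (3.57-fold, adjusted p = 0.0101). For both cytokines the 3 values at 24 h lay close together and the value at 48 h was more than 1 log2 above them. SOCS1, an inhibitor of JAK-STAT signalling that cytokines induce, had 7.41, 7.44 and 7.39 at 24 h and 9.23 at 48 h (3.53-fold, adjusted p = 0.0101). KRT80, an epithelial keratin, had 9.38, 9.32 and 9.51 at 24 h and 11.13 at 48 h (3.31-fold, adjusted p = 0.0101). The TNF receptor family member TNFRSF9 and the decoy receptor TNFRSF11B (osteoprotegerin) rose by 1.43 and 1.40 log2. The groups did not overlap in any of these genes, which was a condition for naming them.

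The other genes among the 12 largest rises have more varied roles. SLC43A2, a transporter of large neutral amino acids, was among the dimmest and most variable of them, with 4.69, 5.06 and 4.37 at 24 h and 6.62 at 48 h. LRRC17, a secreted leucine-rich protein, rose by 1.73 log2 and ATP8A1, a phospholipid flippase, by 1.61. ZNF295-AS1, an antisense transcript, rose by 1.60 and ARHGAP45 by 1.42. INMT, a methyltransferase for indoles, rose by 1.87 on its brighter probe, whereas its other probe gave -0.55 (adjusted p = 0.408). The rise of LRRC17 was 0.64 under normexp background correction, that of SLC43A2 0.87 and that of ARHGAP45 0.76. CCL2, SOCS1, KRT80 and TNFRSF9 passed whichever single array at 24 h was left out, and the other 8 genes lost the call without at least 1 of these arrays.

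The largest falls included structural, mitochondrial and stress genes. ZNF664, a zinc finger gene, had 11.40, 11.40 and 11.42 at 24 h and 9.19 at 48 h, a fall to a level 4.66-fold lower (adjusted p = 0.00461). NES encodes nestin, an intermediate filament of neural stem cells and glioma cells. Its brighter probe read 9.57, 9.60 and 9.61 at 24 h and 7.53 at 48 h (4.18-fold lower, adjusted p = 0.0101), whereas the other NES probe differed by -0.10 (adjusted p = 0.704). HMOX1, the haem oxygenase that oxidative stress induces, had 15.64, 15.61 and 15.78 at 24 h and 14.13 at 48 h (2.93-fold lower, adjusted p = 0.0101). TOMM22, a receptor of the mitochondrial import pore, had 12.15, 12.04 and 12.08 and then 10.53. In each of these 4 genes the value at 48 h lay more than 1 log2 below the lowest value at 24 h.

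Dimmer genes made up much of the rest. SSX1, a cancer-testis antigen, fell by 1.93 log2, CFAP263 (a cilium protein) by 1.76, THBS4 (thrombospondin 4) by 1.76 and the kinase gene CDK14 by 1.66. ZCWPW1, a histone reader, fell by 1.63, NALF1, a subunit of a sodium leak channel, by 1.59, the zinc finger gene ZNF765 by 1.71 and the pseudogene ZNF252P by 1.58. Under normexp the fall was smaller, with values of -0.59 for SSX1, -0.41 for CFAP263 and -0.61 for THBS4, while TOMM22 and HMOX1 both stood at -1.51. CFAP263 lost the call whichever siControl array at 24 h was left out and THBS4 lost it without replicate 3, while the other 10 of the 12 kept it.

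Several NF-kB genes rose. Of 28 genes on the NF-kB and inflammation list that were tested (of 34), 8 were higher at 48 h and none was lower, which is 28.6% against 1.14% of all genes. Their median difference was 0.48, against -0.01 over all genes, and 25 of the 28 lay above the 3 values at 24 h, as did 36.3% of all genes. The 8 were the cytokines CSF2, CCL2, IL6 and IL1B, the adhesion molecule ICAM1, the mitochondrial superoxide dismutase SOD2, and the feedback inhibitors NFKBIA and TNFAIP3. Without siControl replicate 1, 2 or 3 at 24 h, the count fell to 2, 3 and 3, and it was 14 with all probes of a gene averaged and 13 under normexp. The median stayed between 0.39 and 0.54 under all alternatives.

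The 250 bases before the start of the gene were read for members of this list from RefSeq (GRCh38.p14), where 28 of the 34 had an entry. The kappaB consensus, the site that NF-kB binds, was searched on both strands. It was present in 13 of these 28 promoters (46.4%), against 5.05% of 27305 promoters in the table. The list was put together from genes linked to NF-kB, so a high share was built in and is no result of these data. It was found in 3 of 7 promoters of genes that rose (42.9%) and in 7 of 16 of members that were tested and not called higher (43.8%). A match therefore did not separate the members that rose from the others, and BIRC3, with 2 matches, was not called and is not printed. The 3 promoters of genes that rose are printed as examples, 5′ to 3′ on the strand of the gene, with the bases that match the consensus in capitals. A match describes the letters and is not evidence of binding. They lie at chr7:22726950-22727199 for IL6 (plus strand), chr14:35404750-35404999 for NFKBIA (minus strand) and chr6:137867009-137867258 for TNFAIP3 (plus strand).
IL6: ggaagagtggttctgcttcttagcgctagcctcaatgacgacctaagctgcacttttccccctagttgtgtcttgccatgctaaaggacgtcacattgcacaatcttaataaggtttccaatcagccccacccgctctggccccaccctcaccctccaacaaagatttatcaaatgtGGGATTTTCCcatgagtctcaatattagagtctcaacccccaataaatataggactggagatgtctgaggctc
NFKBIA: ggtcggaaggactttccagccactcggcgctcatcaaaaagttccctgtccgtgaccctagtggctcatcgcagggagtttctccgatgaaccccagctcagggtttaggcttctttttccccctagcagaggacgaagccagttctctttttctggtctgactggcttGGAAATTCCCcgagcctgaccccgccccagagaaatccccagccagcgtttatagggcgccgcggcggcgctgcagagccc
TNFAIP3: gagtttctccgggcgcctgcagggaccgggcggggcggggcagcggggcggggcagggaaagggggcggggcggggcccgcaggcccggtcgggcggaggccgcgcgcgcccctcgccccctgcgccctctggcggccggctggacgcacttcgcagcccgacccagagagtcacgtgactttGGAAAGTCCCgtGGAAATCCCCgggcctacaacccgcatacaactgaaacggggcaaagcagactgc

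IL6, the cytokine that drives the acute phase response, carried 1 such match and had 9.49, 9.51 and 9.53 at 24 h and 10.88 at 48 h (2.59-fold, adjusted p = 0.0101). NFKBIA, the inhibitor that retains NF-kB in the cytoplasm, also carried 1 match, and had 11.90, 11.83 and 11.90 and then 12.59 (log2 difference 0.72 ± 0.10, adjusted p = 0.0235). TNFAIP3, a ubiquitin-editing enzyme that shuts the pathway off, carried 2 adjacent matches and had 6.93, 6.97 and 6.97 and then 7.59 (0.64 ± 0.11, adjusted p = 0.0378). In all 3 the value at 48 h lay above every value at 24 h. IL1B, the inflammatory cytokine interleukin 1 beta, had no match in its window and rose from 11.01, 10.87 and 11.15 to 12.29 (2.43-fold, adjusted p = 0.0137). IL6 and CCL2 kept their calls whichever siControl array at 24 h was left out, IL1B lost its call without replicate 1, and the other 5 members lost theirs in each of the 3 cases.

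The remaining 20 members did not pass. BIRC3, an inhibitor of apoptosis, had 6.75, 6.70 and 6.94 at 24 h and 7.92 at 48 h (1.12, adjusted p = 0.0586). The subunit gene NFKB1 differed by 0.04 and the prostaglandin synthase gene PTGS2 by -0.19. CSF3, which encodes the growth factor G-CSF and is not on the list, rose from 10.47, 10.65 and 10.58 to 11.84 (2.42-fold, adjusted p = 0.0108), and its second probe gave 1.35.

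Some acute phase proteins also rose. Of 18 genes on the complement and acute phase list that were tested, 3 rose and none fell (16.7% against 1.14% of all genes), with a median of 0.26. Complement C3 had 9.93, 9.84 and 9.97 at 24 h and 11.03 at 48 h (2.17-fold, adjusted p = 0.0159). CHI3L1, a secreted glycoprotein of mesenchymal glioma, had 13.57, 13.50 and 13.63 and then 14.42, and the pentraxin PTX3 rose by 1.04 log2. The value at 48 h lay above every value at 24 h in these 3 genes. On the interferon list 1 of 43 genes rose, the transcription factor gene IRF1 (0.70, adjusted p = 0.0396), a share of 2.33%. C3, PTX3, CHI3L1 and IRF1 lost the call whichever siControl array at 24 h was left out.

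**Figure D2:**
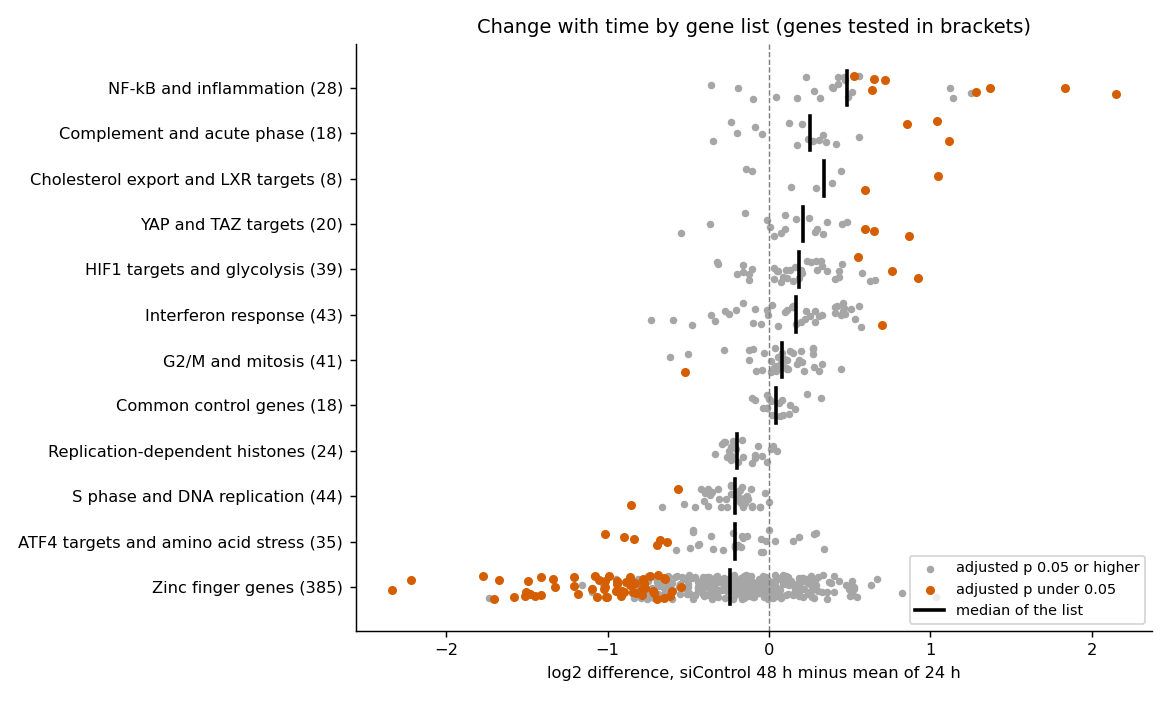
Log2 difference between 48 h and the mean of 24 h in siControl cells (horizontal axis) for every gene tested on 12 of the lists, 1 point per gene spread vertically for legibility. Coloured points passed an adjusted p of 0.05 and black lines mark the list's median, from 0.48 for NF-kB genes to -0.24 for zinc finger genes, with 0.04 for common control genes.

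Many zinc finger genes fell. Of 385 genes with a ZNF symbol that were tested (of 488), 58 were lower at 48 h and none was higher, a share of 15.1% against 3.58% of all genes. Their median difference was -0.24. Of the 385, 243 lay below the 3 values at 24 h and 74 above, against 39.3% and 36.3% of all genes. Among the 53 of these that were well above background on all 4 arrays, the difference ranged from -2.22 to -0.55. Among the larger falls were those of ZNF765, at 7.03, 7.11 and 7.13 and then 5.38, and of ZNF252P, at 10.59, 10.48 and 10.62 and then 8.98. In both genes the value at 48 h was more than 1 log2 below every value at 24 h. ZNF320, at least 2.68-fold lower, and the pseudogene ZNF137P, at least 3.42-fold lower, were not well above background at 48 h, and their differences were -0.25 and -0.28 under normexp. At 24 h ZNF320 was so on just 1 array, and it was no longer called without replicate 2. The second probes of ZNF765, ZNF320 and ZNF137P gave smaller differences of -0.36, -0.51 and -0.44, none of which passed (adjusted p = 0.716, 0.190 and 0.764). Related zinc finger genes can share probe sequence, and cross-hybridisation was not tested. The filter, which reads the arrays at 24 h, kept ZNF546 out of the test, a gene measured at 48 h alone.

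The falls of zinc finger genes were set against their level and position. The genes on this list were dim, with a median log2 signal at 24 h of 7.04 against 8.84 over all genes. By bands of level, the share that fell was 13.6% of zinc finger genes against 2.59% of other genes below a log2 signal of 6, 19.1% against 3.7% from 6 to 8, 14.9% against 3.65% from 8 to 10, and 6.38% against 3.11% (3 of 47 zinc finger genes) from 10 upwards. The part of low signal in these falls was not tested. On chromosome 19, 27 of 175 zinc finger genes fell (15.4%), close to the 31 of 210 elsewhere (14.8%), whereas 22 of 884 other genes of chromosome 19 did (2.49%). The median of the list was -0.15 with scaling to the 75th percentile, -0.13 under normexp and -0.17 in the deposited log2 values, with 39, 41 and 48 genes lower. With no filter on dim probes the count lower was 35. Without siControl replicate 1, 2 or 3 at 24 h, 10, 8 and 7 zinc finger genes were called lower.

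**Figure D3:**
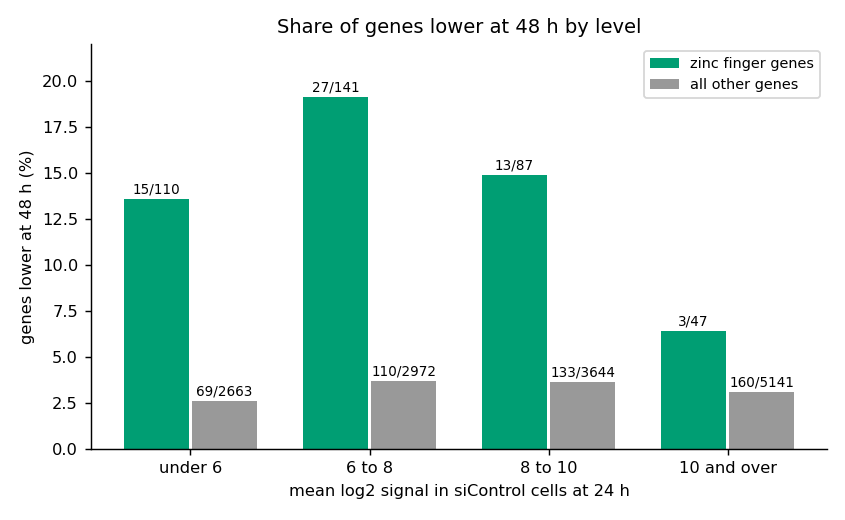
Share of genes lower at 48 h in siControl cells past an adjusted p of 0.05 (vertical axis, %) by mean log2 signal at 24 h (horizontal axis), for genes with a ZNF symbol and for all other genes, with counts above the bars. The share was higher among zinc finger genes at each level, with 27 of 141 against 110 of 2972 between 6 and 8.

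Several targets of ATF4 fell. Of 35 tested, 6 were lower at 48 h and none was higher (17.1% against 3.58% of all genes), with a median of -0.21. TRIB3, a pseudokinase that ATF4 induces, had 10.97, 10.97 and 11.06 at 24 h and 9.98 at 48 h (2.02-fold lower, adjusted p = 0.0159). CTH, an enzyme that makes cysteine, had 9.11, 9.08 and 9.20 and then 8.23, and DDIT3 (CHOP), a stress transcription factor, had 10.25, 10.36 and 10.52 and then 9.54. The value at 48 h lay below every value at 24 h in these genes. The others were the cystine transporter SLC7A11 (-0.69), the cystathionine synthase CBS (-0.68) and the carboxykinase PCK2 (-0.63). ATF4 itself differed by -0.05 (adjusted p = 0.796) and asparagine synthetase ASNS by -0.21 (adjusted p = 0.303). None of the 6 was called without siControl replicate 1, nor without replicate 2 or 3.

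Genes of metabolism and of the matrix gave a few calls each. Of 39 HIF1 targets and glycolytic genes, 3 rose (7.69% against 1.14% of all genes) with a median of 0.18. These were DDIT4, an inhibitor of mTOR signalling, with 11.36, 11.28 and 11.30 at 24 h and 12.24 at 48 h (1.90-fold, adjusted p = 0.0141), the carbonic anhydrase CA9 (0.76, adjusted p = 0.0238) and the lactate transporter SLC16A3 (0.55, adjusted p = 0.0463). Of 8 genes of cholesterol export and LXR targets, 2 rose (25.0% against 1.14%), MYLIP, which degrades the LDL receptor, by 1.05 and the phospholipid enzyme LPCAT3 by 0.59. Among 32 genes of cholesterol and fatty acid synthesis, the transcription factor SREBF1 (0.65) and the sterol carrier STARD4 (0.68) rose. The mevalonate pathway kinase PMVK fell by 0.96 log2. The shares were 6.25% higher and 3.12% lower, against 1.14% and 3.58% of all genes. The second SREBF1 probe gave a smaller difference of 0.38, which did not pass (adjusted p = 0.163). TIMP3, an inhibitor of matrix proteases, had 10.14, 10.05 and 10.18 and then 11.26 (2.20-fold, adjusted p = 0.0101), and it passed whichever array at 24 h was left out, which none of the other genes named here for HIF1, cholesterol or LXR did.

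Collagens went both ways, with 7.41% of those tested higher and 7.41% lower, against 1.14% and 3.58% of all genes. Of 27 tested, COL1A1, the main fibrillar collagen, rose from 11.60, 11.59 and 11.55 to 12.32 (adjusted p = 0.0248) and the basement membrane chain COL4A2 rose by 0.59. COL4A6, another basement membrane chain, fell by 0.83 log2, and COL5A3 was not well above background at 48 h, at least 4.05-fold lower, although its log2 difference was -0.36 under normexp and -0.68 in the deposited values. The basement membrane protein NID2 rose by 0.67 and the aggrecanase ADAMTS5 fell by 0.70 log2. Of 20 YAP and TAZ targets 3 rose, the kinase gene NUAK2 (0.87), tissue factor F3 (0.65) and the growth factor TGFB2 (0.59), a share of 15.0% against 1.14% of all genes, with a median of 0.21. The actin gene ACTA2 and the tropomyosin TPM2 fell by 0.77 and 0.60 log2. COL5A3 kept its call whichever siControl array at 24 h was left out, and the other genes named here lost theirs in each case.

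Few cell cycle genes passed. All 44 genes of S phase and DNA replication had a negative difference, between -0.86 and -0.0012, with a median of -0.21, and 41 lay below the 3 values at 24 h, as did 39.3% of all genes, but only 2 passed (4.55% against 3.58%). These were TIPIN, a protein that steadies stalled replication forks, with 11.37, 11.29 and 11.30 at 24 h and 10.46 at 48 h (adjusted p = 0.0215), and the chromatin assembly subunit CHAF1B, lower by 0.57. None of 24 replication-dependent histone genes passed, with a median of -0.20. Of 41 genes of G2/M and mitosis, 31 had a positive difference (median 0.08), and the only call was the fall of the mitotic survivin BIRC5 (-0.52, adjusted p = 0.0374). Among 23 cell cycle inhibitors and quiescence genes, the transcription factor KLF9 (0.60) and the antiproliferative TOB1 (0.67) rose and KLF2 fell by 0.83 log2. The shares were 8.7% higher and 4.35% lower, against 1.14% and 3.58% of all genes. The calls of TIPIN, CHAF1B, BIRC5, KLF9, TOB1 and KLF2 were lost in each of these cases as well. These are bulk samples, in which fewer cells in a phase and less RNA per cell cannot be told apart.

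Other groups held 1 to 3 calls each. The immediate early gene EGR1 fell by 0.93 log2 and ZFP36, which destabilises cytokine mRNA, rose by 0.60. INHBA, a subunit of activin, fell by 0.85 log2, the autophagy kinase ULK1 by 0.62 and the metallothionein MT1M by 0.75. AKR1C3, an aldo-keto reductase, and the glutamate transporter SLC1A3 rose by 0.75 and 0.72. Calls numbered 3 of 25 among amino acid transporters, 3 of 38 among matrix proteins and proteases, 3 of 20 among NRF2 antioxidant genes, 2 of 25 among immediate early genes, 2 of 25 among SRF-type actin genes, 2 of 19 among TGF-beta and BMP targets, 1 of 32 among lysosome and autophagy genes, 1 of 12 among metallothioneins and 1 of 19 among heat shock proteins, against 4.72% of all genes in either direction. HSPB7, a small heat shock protein, was measured at 24 h (5.77, 5.79 and 5.78) but was not well above background at 48 h, at least 4.97-fold lower (adjusted p = 0.0101), although its log2 difference was -0.60 under normexp and -0.96 in the deposited values. Among 87 ribosomal protein genes RPL26L1 fell by 1.12 log2 and RPL27A rose by 0.86. That is 1.15% in each direction, against 3.58% lower and 1.14% higher among all genes. No gene passed among 26 p53 targets, 20 genes of the unfolded protein response, 61 of the respiratory chain, 33 splicing factors and 18 common control genes, whose medians lay between 0.02 and 0.08.

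RND3, the gene targeted in the other cells, had 11.88, 11.91 and 11.90 at 24 h and 11.48 at 48 h in siControl cells. The difference of -0.41 ± 0.13 did not pass (adjusted p = 0.143), although the value at 48 h lay below all 3 at 24 h. None of the 16 genes tested for RND3 and its partners passed. Their differences ran from that of RND3 itself to 1.44 for its relative RND1, which had 2.83, 4.44 and 4.34 at 24 h and 5.31 at 48 h (adjusted p = 0.242). In siRND3 cells the time difference of RND3 was also -0.41 (10.13, 10.18 and 10.41 at 24 h, 9.83 at 48 h).

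Some genes were measured at 1 time only. There were 410 probes well above background at 48 h but on none of the 3 arrays at 24 h, and 410 the other way round. Large lower bounds at 48 h were those of the zinc finger gene ZNF546 (at least 15.7-fold higher), DCAF4L2 (14.4-fold), the lymphocyte GTPase GIMAP1 (8.67-fold) and LINC02139 (7.40-fold). ZNF546 had 1.41, 2.46 and 2.37 at 24 h and 6.40 at 48 h. None of these 4 was tested, since they did not pass the filter, which reads the arrays at 24 h. Among probes with a gene symbol, the largest bounds in the other direction were those of ARHGAP6 (4.71, 4.43 and 5.27 at 24 h, at least 5.17-fold lower at 48 h, adjusted p = 0.0101), HSPB7, LOC100130691 (4.60-fold), the second probe of ZCWPW1 (4.52-fold) and FRMPD4 (4.38-fold). With all spots of a probe required to be well above background, the counts were 383 and 416. Probes measured at 24 h alone could be tested because they passed the filter through the arrays on which they were high, so their p-values are no support for the direction. Probes of this kind lie near the limit of detection.

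To ask whether the change with time belonged to siControl cells, it was compared with that in siRND3 cells. The difference between the changes passed for 555 genes (3.75% of 14805), of which 343 were more negative and 212 more positive in siRND3 cells. The siControl array at 48 h enters both the change in siControl cells and this difference, so genes chosen for a large change in siControl cells are not an independent choice for this test. Of the 699 genes called in siControl cells, 216 were also called in siRND3 cells, 180 of them with the same sign, and 234 had the opposite sign there. In siRND3 cells 480 genes rose with time and 1210 fell. The count of 555 rested on single siControl arrays, with 5, 11 and 17 genes left without replicate 1, 2 or 3 at 24 h, and 106, 197 and 184 without the matching siRND3 arrays.

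**Figure D4:**
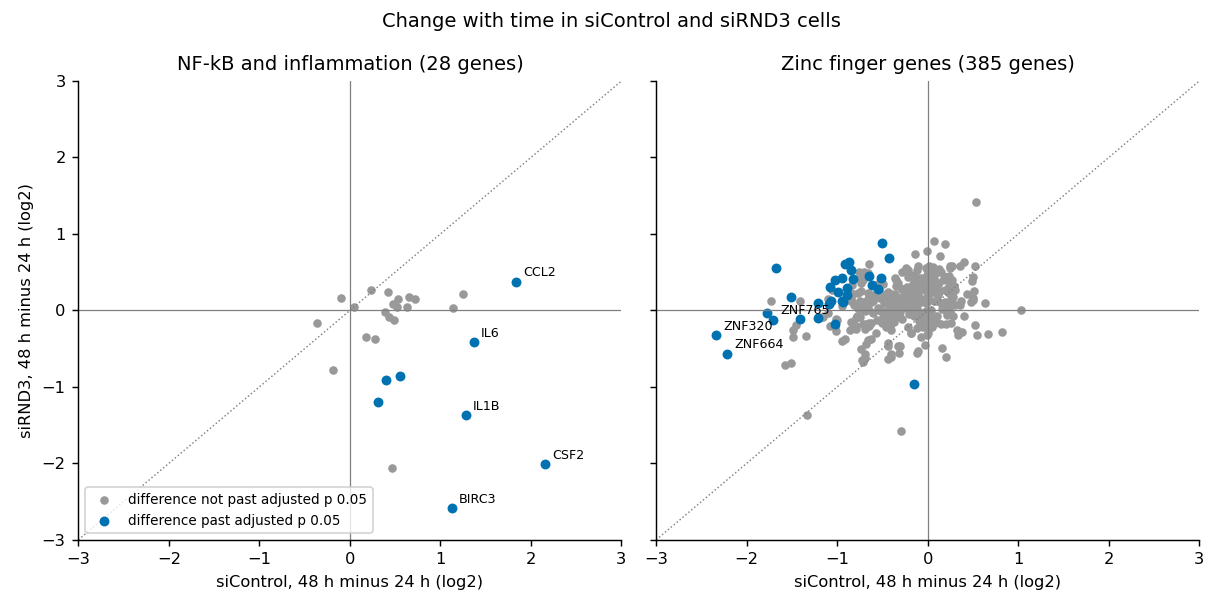
Log2 difference between 48 h and 24 h in siControl cells (horizontal axis) and in siRND3 cells (vertical axis) for NF-kB genes (left) and zinc finger genes (right), 1 point per gene, with equal change on the dotted line. Blue points mark genes whose changes differed past an adjusted p of 0.05, 8 of 28 on the left and 31 of 385 on the right. CSF2 lies at 2.15 and -2.01.

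The 8 NF-kB genes that rose in siControl cells were not called higher in siRND3 cells. Of all 169 genes that rose in siControl cells, 49 also rose in siRND3 cells and 24 fell. On the NF-kB list, 0 of the 28 passed as higher there and 8 as lower, with a median of -0.05. These are not the same 8 genes, as CCL2 (0.38) and IL6 (-0.41) did not pass in siRND3 cells. Over all 14805 genes, 480 rose and 1210 fell in siRND3 cells, with a median of 0.03. IL1B had 9.51, 9.39 and 9.38 at 24 h and 8.05 at 48 h in siRND3 cells, a fall of 1.37 log2 that differed from the rise in siControl cells by -2.66 ± 0.19 (adjusted p = 0.01). CSF2 was not well above background on 2 of the 4 siRND3 arrays, that at 48 h among them, so its fitted difference of -4.17 (adjusted p = 0.0125) has no exact size. For CSF3 the difference was -2.76 and for IL6 -1.78, whereas SOCS1 rose in siRND3 cells too, by 0.60, and differed by -1.22 (adjusted p = 0.0255). The rises of ATP8A1, MYLIP, LPCAT3 and AKR1C3 were matched in siRND3 cells by rises of 1.29, 0.97, 0.77 and 0.73, and their differences did not pass (adjusted p = 0.633, 0.883, 0.551 and 0.957).

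Zinc finger genes in siRND3 cells had a median change of 0.11, with 14 of 385 higher and 7 lower. Over all 14805 genes, 480 were higher and 1210 lower there, so the share of zinc finger genes that rose was close to that of all genes. The difference passed for 31 of the 385 zinc finger genes (555 of 14805 over all genes), of which 30 were more positive in siRND3 cells. Of the 58 that fell in siControl cells, 3 also fell in siRND3 cells and 1 rose. Of all 530 genes that fell in siControl cells, 131 also fell in siRND3 cells and 12 rose. ZNF664 had 11.66, 11.56 and 11.61 at 24 h and 11.04 at 48 h in siRND3 cells, a change of -0.57 against -2.22 in siControl cells (difference 1.65 ± 0.13, adjusted p = 0.0127). ZNF765 read 7.86, 7.82 and 8.12 and then 7.81. TOMM22, CDK14 and NES also kept their level more closely in siRND3 cells, with changes of 0.09, 0.01 and -0.38 that differed from those in siControl cells by 1.64, 1.67 and 1.68. ACTA2 fell in both, with values of -0.77 and -0.99, and so did CTH, with -0.90 and -0.81. The S phase list had a median of -0.21 in siControl and -0.34 in siRND3 cells, and the ATF4 list -0.21 and -0.15. In siRND3 cells 8 of 44 and 6 of 35 genes of these lists fell, against 1210 of 14805 over all genes.

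The genes with the largest differences between the treatments were in part those that hardly moved in siControl cells. ANGPTL4, a lipase inhibitor, had 11.50, 11.58 and 11.62 at 24 h and 11.24 at 48 h in siControl cells (-0.32, adjusted p = 0.14), and changed by -3.19 in siRND3 cells. The chemokine CCL3 differed by 0.61 in siControl cells (adjusted p = 0.0692), the sialyltransferase ST8SIA5 by 0.50 and the transporter SLC16A6 by 0.25, with changes of -2.20, -2.24 and -2.49 in siRND3 cells. In the other direction LRRN4CL (-0.46), the neurofilament NEFM (-0.87) and the carboxypeptidase CPA5 (-0.61) did not pass in siControl cells and rose in siRND3 cells by 1.89, 1.20 and 1.21, whereas LY6D fell in siControl cells, by 1.49 log2.

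**Figure D5:**
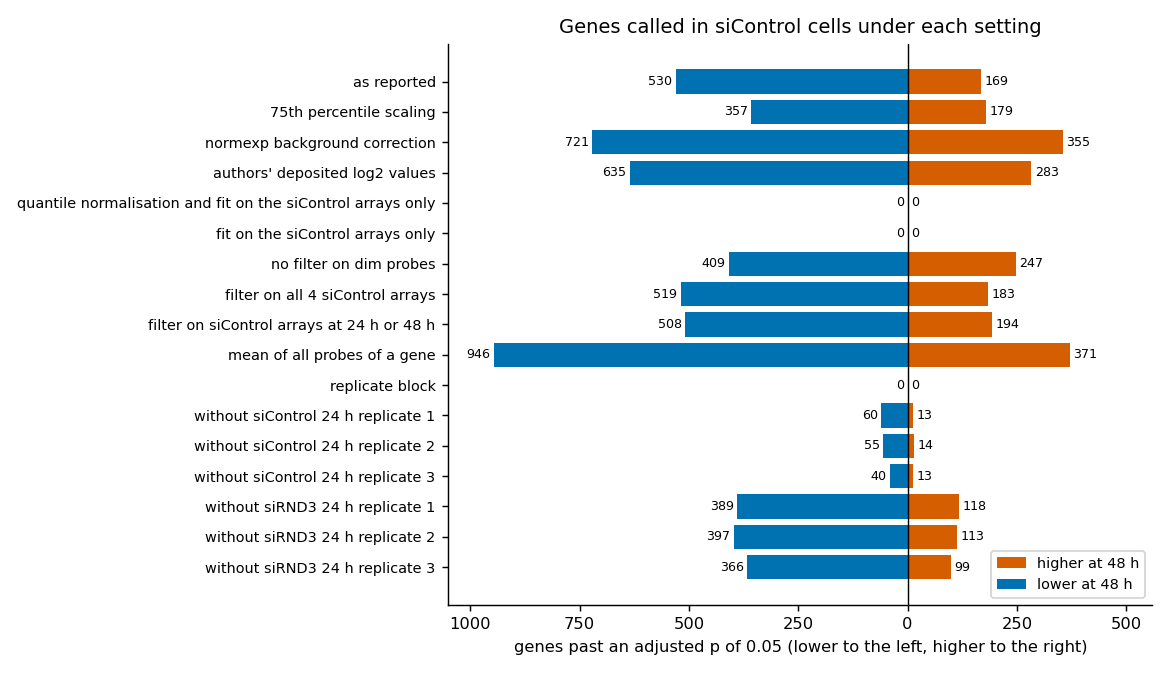
Number of genes called in siControl cells (horizontal axis, lower to the left and higher to the right) with the values as reported and under each of 16 alternatives. The count of 530 lower and 169 higher as reported becomes 0 where the siRND3 arrays do not lend their spread or where the replicate number is a term, and between 53 and 73 in all when a siControl array at 24 h is left out.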

How the data were processed

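RNA from U87 cells was hybridised to 8 one-colour Agilent arrays, and the authors deposited each array's Feature Extraction output (version 10.7.3.1), in which the processed signal is a background-subtracted intensity per spot. A second file deposited by the authors, with normalised log2 values, served as an alternative. Here spots marked as outliers were left out and the log2 processed signals of spots were quantile-normalised over the 8 arrays. The spots of a probe were then averaged. A probe was kept if the 3 arrays at 24 h of either treatment all showed it well above background (28762 of 42405). A probe counted as well above background on an array where at least 50% of its spots were. Groups followed the labels. limma 3.58.1 in R 4.3.3 fitted 4 groups with Benjamini-Hochberg adjustment over probes and a threshold of 0.05, and was tested on simulated data. The fit had 4 residual and 2.52 prior degrees of freedom, and the number of arrays limits the precision. RefSeq transcript accessions named 25422 probes (60.0%), and the brightest probe stood for a gene. Sequences came from RefSeq tables of GRCh38.p14.

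Named were the 12 largest rises and falls past the threshold that were well above background on the 4 siControl arrays, up to 4 called members of each list and RND3, the 5 largest bounds in each direction for probes measured at 1 time, and the 5 largest differences between treatments in each direction. Of the bounds at 48 h, 1 is not reported here. CSF3, NFKB1, PTGS2 and a few other list members were named after their values were seen. The arrays, gene lists and tests were chosen with earlier results of these data known. A bound sets a probe that is not well above background against the higher of its own signal and the lowest signal of probes that are. Alternatives changed the scaling, background correction (normexp with offset 50 on median signals, since the files hold no mean), source of values, arrays fitted, filter, probe choice, replicate term and arrays left out.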

Additional observations from a re-analysis of the deposited data

Results flagged for a closer look

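The change from 24 h to 48 h differed between siRND3 and siControl cells for 41 of the named genes, past an adjusted p of 0.05 for the difference itself in limma. Values are the log2 change in siRND3 cells minus that in siControl cells. Genes named for a large change in siControl cells share the array at 48 h with this difference, so their differences are not independent of that choice. Other genes, such as ANGPTL4 and LRRN4CL, were named for the size of this difference itself, so they passed by construction. The count of 41 is therefore not a share to set against all genes tested, of which 555 of 14805 passed (3.75%). ZNF320 and ZNF137P were not well above background in siControl cells at 48 h.

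The difference was negative for the cytokines and secreted proteins, at -4.17 for CSF2, -2.87 for ANGPTL4, -2.81 for CCL3, -2.76 for CSF3, -2.66 for IL1B, -1.78 for IL6, -1.69 for PTX3, -1.53 for C3, -1.46 for CCL2 and -1.36 for F3. It was negative for the matrix genes, at -2.53 for COL4A2, -1.34 for TIMP3 and -1.12 for NID2. Among receptors, enzymes, transporters and other genes it was -3.61 for INMT, -2.74 for ST8SIA5, -2.74 for SLC16A6, -1.71 for ARHGAP45, -1.64 for ZNF295-AS1, -1.45 for RPL27A, -1.24 for TNFRSF9, -1.22 for SOCS1, -1.22 for SLC16A3, -1.20 for KRT80, -1.09 for CA9 and -1.01 for KLF2. INMT and CSF2 were not well above background in siRND3 cells at 48 h, so their values have no exact size.

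The difference was positive for the zinc finger genes, at 1.58 for ZNF765, 1.65 for ZNF664, 1.74 for ZNF137P and 2.01 for ZNF320. For the other genes it was 0.94 for PMVK, 1.19 for NALF1, 1.27 for HMOX1, 1.30 for SSX1, 1.64 for TOMM22, 1.67 for CDK14, 1.68 for NES, 1.82 for CPA5, 2.08 for NEFM, 2.08 for CFAP263, 2.08 for LY6D and 2.34 for LRRN4CL.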

How the results depend on the processing

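As reported, 169 genes were higher and 530 lower, and 555 differed between treatments. Fitted on the siControl arrays alone, with or without their own quantile normalisation, limma called 0 and 0, with 4145 and 4118 genes at an unadjusted p under 0.05. Leaving out 1 array at 24 h gave 13 to 118 genes higher, 40 to 397 lower and 5 to 197 between treatments. Genes higher numbered 355 under normexp, 283 in the deposited log2 values and 371 with probes averaged, which gave 946 lower. The difference between treatments passed for 973 genes under normexp and 1229 with probes averaged. Genes outside the 24 h range by more than 1 log2 numbered 23 higher and 30 lower under normexp, 29 and 46 in the deposited values, 393 and 438 without a filter, 201 and 196 with the filter on siControl arrays at 24 h or 48 h, and 142 and 132 with 75th percentile scaling, against 95 and 206 as reported. Leaving out 1 array gave 96 to 115 and 206 to 232. Of 74 named genes that were called, 16 lost the call in none of the 13 alternatives that made calls, and none changed direction. HSPB7, not well above background at 48 h, is among the 16, although the filter on every siControl array left it untested. Of the 699 genes, 509 were shared with 75th percentile scaling and 594 with normexp. Signal over background limits the size of changes of dim probes.

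With the replicate number as a block, no gene was called in siControl cells (0 higher and 0 lower, with 2433 at an unadjusted p under 0.05) and 0 differed between treatments. Same-numbered arrays deviated together at r = 0.0018, -0.012 and 0.13, so the numbers were not taken to pair the arrays. Slide as a block was not run, since there was 1 slide.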

Other observations

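Some other groups were described after their values had been seen, with members recalled in part from genes that had risen, so their counts carry no test. Of 43 genes tested that are known as targets of the let-7 microRNAs, 10 were higher at 48 h in siControl cells and none was lower (23.3% against 1.14% of all genes), with a median difference of 0.16 and 29 positive values. ARID3B, a DNA-binding protein, had log2 signals of 8.54, 8.61 and 8.61 at 24 h and 9.59 at 48 h (adjusted p = 0.0141 in limma). HMGA2, a chromatin protein of embryonic and tumour cells, had 12.97, 12.88 and 12.94 and then 13.73 (adjusted p = 0.0178), and fell by 1.25 log2 in siRND3 cells. In both genes the value at 48 h lay above the 3 values at 24 h. The RNA-binding protein LIN28B rose by 0.57 and DICER1, which cuts microRNA precursors, by 0.67. The microRNAs themselves were not analysed here. Their mature sequences in RefSeq share the seed, printed in capitals (bases 2 to 8).
hsa-let-7a-5p: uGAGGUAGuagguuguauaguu
hsa-let-7b-5p: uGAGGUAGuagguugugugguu
hsa-miR-98-5p: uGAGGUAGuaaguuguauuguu

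Of 8 inhibitors of cytokine signalling, 3 rose in siControl cells (37.5% against 1.14% of all genes), with a median of 0.46 over the 8. These were SOCS1, CISH (0.84, adjusted p = 0.0467) and SOCS2 (0.66, adjusted p = 0.0372). Of 19 members of the TNF receptor superfamily, TNFRSF9, TNFRSF11B and the decoy receptor TNFRSF10D (0.66, adjusted p = 0.0429) rose. That is 15.8% against 1.14% of all genes, with a median of 0.11 over the 19.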
